A study of Mus musculus with 4 samples.

Results

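The cells described here are 51 collagen-producing cells found among the leukocytes of mouse melanoma tumours. They were chosen from raw counts of unique molecular identifiers (UMIs, 1 per captured messenger RNA molecule): at least 10 UMIs of Col1a1, Col1a2 and Col3a1 together, which encode the chains of collagens I and III. In addition a cell had fewer than 10 UMIs of the melanocyte genes Mlana and Dct, at most 1 of the macrophage receptor Csf1r, at most 1 of the T cell genes Cd3d, Cd3e and Cd3g together, and at most 1 of the endothelial genes Pecam1 and Cdh5 together. Barcodes had to reach 500 genes with no more than 10% of UMIs from mitochondria, which left 8677 of 8838 barcodes, and 51 of the 8677 met the gate. Measured values therefore chose the cells, and every level of a collagen or a lineage gene given against other cells is a description and not a test.

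The study profiled the immune infiltrate of B16-F10 melanomas, a C57BL/6-derived tumour line, that either lacked Adar1 or were controls. Adar1, encoded by Adar, is an enzyme that edits adenosines in double-stranded RNA. There were 2 droplet libraries (10x 3′ v2) from Adar1-null tumours, called S1 and S2, and 2 from control tumours, called S3 and S4. All tumours were grown from 2000000 implanted cells in matrigel in C57BL/6 mice and taken on day 14, digested for 10 min at 37 °C with collagenase P and DNAse I, and enriched for leukocytes with Optiprep and then with magnetic beads against CD45. The labels give the genotype of the tumour, and no Adar1 change of the host is labelled. Whether a group's libraries were made from different mice is not stated, so the spread between libraries may be technical.

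Fibroblasts are mesenchymal cells that build the extracellular matrix. They secrete fibrillar collagens, small leucine-rich proteoglycans such as decorin that space the collagen fibrils, elastic-fibre glycoproteins, and the enzymes that cross-link and degrade these. In tumours they are known to take several states, among them contractile myofibroblasts with smooth muscle actin, inflammatory fibroblasts that make chemokines and acute-phase proteins, and fibroblasts that respond to interferon with antigen presentation and T cell chemokines. Fibroblasts are not known to carry CD45, the leukocyte surface protein encoded by Ptprc.

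Depth set the limits of what could be described. The fibroblasts of S1, S2, S3 and S4 held 116961, 246765, 100519 and 322794 UMIs, so that 1 UMI was worth 8.55, 4.05, 9.95 and 3.10 CPM (UMIs of a gene per 1000000 UMIs of a library's summed fibroblasts). The median fibroblast had 12751 UMIs and 3342 genes, against 8040.5 UMIs and 2288 genes in all other kept cells. No fibroblast shared its cell barcode with a cell of another library, although 38 barcodes occurred in more than 1 library, and no fibroblast was among the 108 cells that the doublet caller Scrublet scored above 0.1. Adar itself had 12 UMIs in all fibroblasts, at 8.55 and 20.3 CPM in the Adar1-null libraries and 29.8 and 9.29 CPM in the control libraries. These levels overlapped, and 3′ counts check nothing about a deletion in the tumour line.

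Fibroblasts were rare in every library. S1 and S2 held 6 and 14 of them among 1972 and 1957 kept cells, and S3 and S4 held 8 and 23 among 1962 and 2786. The shares were 0.304% and 0.715% in the Adar1-null libraries (exact binomial 95% intervals 0.112 to 0.661% and 0.392 to 1.20%), against 0.408% and 0.826% in the control libraries (0.176 to 0.802% and 0.524 to 1.24%). The 2 libraries of a group differed more than the groups did. Means were 0.510 ± 0.291% and 0.617 ± 0.295% (SD, n = 2 each), a difference of -0.107 percentage points (exact two-sided permutation test, p = 0.667, with 0.33 the smallest p that 4 libraries allow). Without S1 or without S4 the difference was 0.0987 or 0.102 percentage points, so its direction rested on those libraries. These intervals cover counting error only, and the share describes what passed the CD45 selection, not the tumour.

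The collagen gate cut through few cells. Of the kept cells, 7831 (90.3%) had no UMI of the 3 collagen genes and 62 had at least 10, of which the lineage limits removed 11. The lowest 3 fibroblasts had 10, 19 and 24 collagen UMIs, the median fibroblast 197 and the highest 780. Just outside the floor lay 2 cells with 9 collagen UMIs, 1 in S3 with 45 Rgs5 UMIs and 1 in S4 with 69 Dcn UMIs. As background from free RNA and joined droplets, Col1a1 had a UMI in 1.04% of 1440 T cells and 2.76% of 1700 macrophages, at median depths of 8769 and 8145 UMIs, against 51 of 51 fibroblasts. The T cells counted here include the cells with both Cd3 and collagen UMIs that the limits removed.

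The name fibroblast held for most of the 51 cells but not for all. Dcn, which encodes the proteoglycan decorin, was found in 45 cells and was at 3250.2 CPM over all fibroblasts, against 7.83 CPM in all other kept cells. Pdgfra, the receptor for platelet-derived growth factor on fibroblasts, was found in 30 cells, at 92.8 CPM against 0.274 CPM. Ptprc had 4 UMIs in all, 1 each in 4 cells, and stood at 5.08 CPM against 114 CPM in the other cells. The transcript of the antigen used for selection was therefore found in few of these cells.

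Among the 51, 6 cells had at least 3 UMIs of Rgs5, a regulator of G protein signalling that marks pericytes, the cells that wrap small vessels. None of the 6 had a Pdgfra UMI, 5 of them had no Dcn, all 6 had Pdgfrb, and 5 had Higd1b, another pericyte gene. In 3 of them, all in S2, the smooth muscle actin gene Acta2 stood at 405, 539 and 559 UMIs a cell, with 22, 19 and 64 UMIs of Actg2, the enteric and vascular smooth muscle actin. The label goes against the data for these 6 cells, of which 4 were in S2 and 2 in S3, and they are called Rgs5-positive below. A seventh doubtful cell, in S1, had 30727 UMIs but 19 collagen UMIs, all of Col1a1, and no Dcn, Pdgfra or Rgs5. Where leaving out the 6 Rgs5-positive cells ended a call given here or moved a list's count of calls, the value without them is given too. The seventh cell stayed in those values, and it held 30727 of the 116961 fibroblast UMIs of S1.

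**Figure D1:**
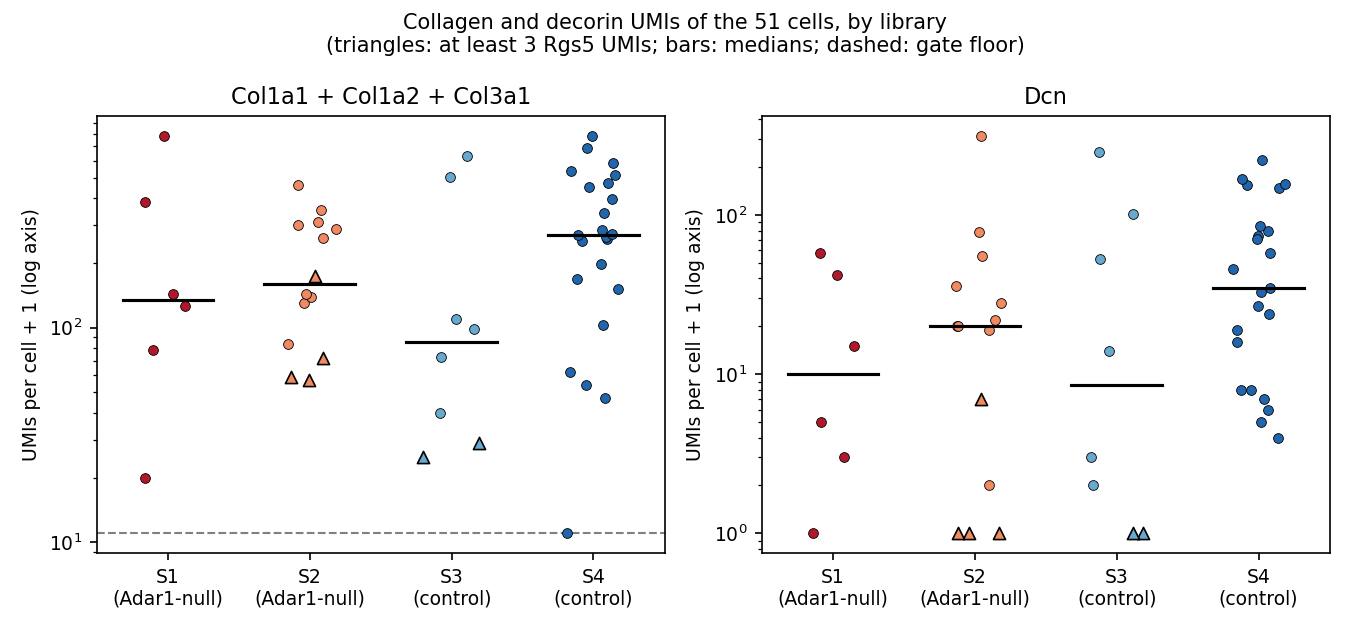
UMIs of the 3 collagen genes together (left) and of Dcn (right) in each of the 51 cells, with 1 UMI added, on log axes, by library, with Adar1-null libraries left. Bars are medians, the dashed line is the floor of 10 UMIs and triangles are the 6 cells with at least 3 Rgs5 UMIs, which held 24 to 173 collagen UMIs, 5 of them without Dcn.

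Macrophage, T cell, melanocyte and epithelial markers left little in most of these cells. Macrophage and monocyte markers made up 0.150% and 0.0316% of fibroblast UMIs in the Adar1-null libraries, with 0.0448% and 0.139% in the control libraries, against 1.09 to 1.65% in the other cells. In single fibroblasts these markers ran from 0 to 2.01% of UMIs, with a median of 0.0433%. The highest fibroblast therefore lay above the summed other cells of every library. All 14 of these markers had a UMI somewhere in the fibroblasts. T cell markers lay between 0.000310% and 0.00342% of UMIs, melanocyte markers between 0.00851% and 0.0217%, and of 9 keratinocyte and epithelial markers 8 had no UMI. Endothelial markers lay at 0.0145% and 0.0272% in the Adar1-null libraries, with 0.0189% and 0.00403% in the control libraries, of which Cdh5, Tie1 and Cldn5 were at 0. Endothelial markers in the other cells were at 0.00513%, 0.00731%, 0.00865% and 0.00475% in S1 to S4, lower than in fibroblasts except in S4. Adipocyte markers, of which 4 of 8 had no UMI, lay at 0.0188%, 0.0948%, 0.142% and 0.109% in S1 to S4. In the other cells adipocyte markers were at 0.0417%, 0.0343%, 0.0492% and 0.0333%. Pericyte and mural markers lay at 0.0325% and 0.188% against 0.189% and 0.0840%, which sets S2 and S3, the libraries of the Rgs5-positive cells, above S1 and S4.

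**Figure D2:**
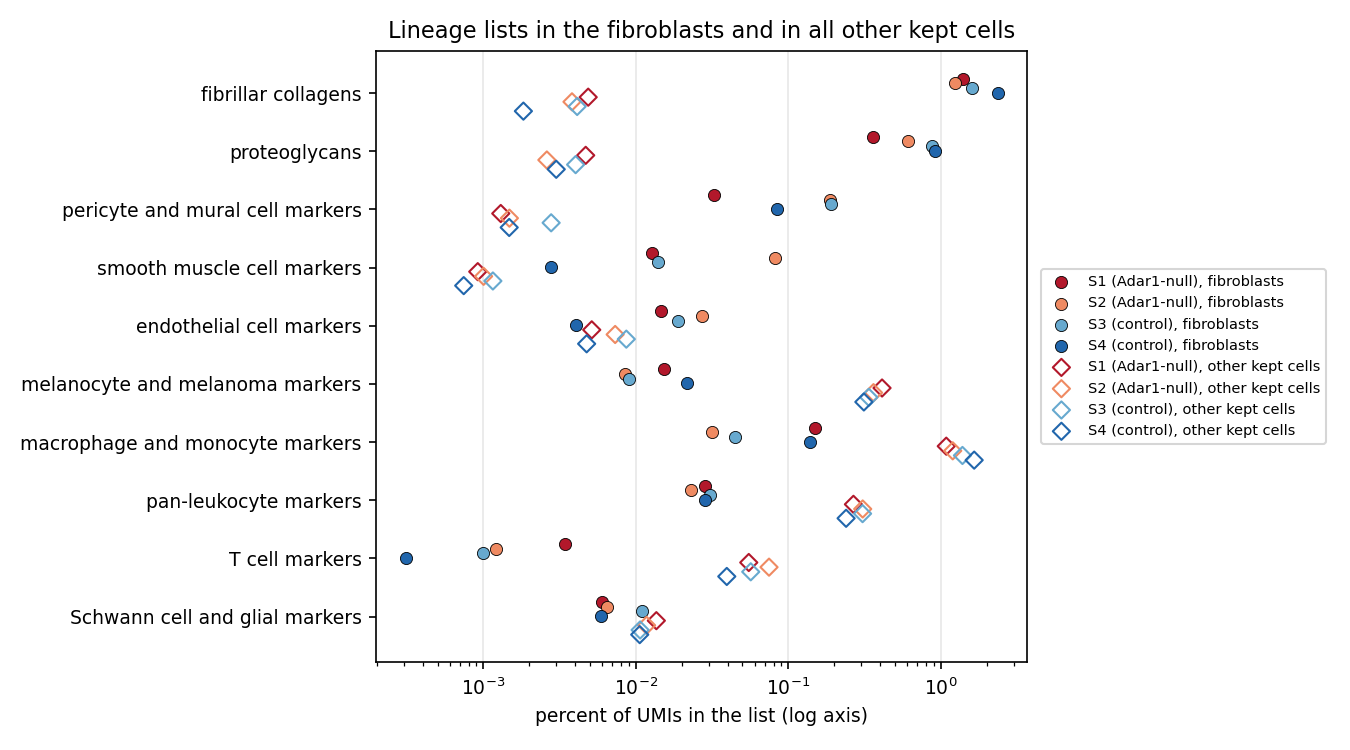
Percent of UMIs in lineage marker lists (log axis) in the fibroblasts (filled circles) and in all other kept cells (open diamonds) of each library. Fibrillar collagens stood at 1.24 to 2.36% of fibroblast UMIs, and leukocyte, macrophage, T cell and melanocyte lists lay lower in fibroblasts than in the other cells of the same library.

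Many of the genes highest in fibroblasts over other cells encode the matrix or its assembly. A gene was counted as a marker where it had at least 100 UMIs, was found in at least 26 of the 51 fibroblasts and stood at least 4 times higher in fibroblasts than in all other kept cells in each library. Of 1186 genes found that often, 163 met this, leaving out the gate's own genes. Over all 7098 genes with at least 10 fibroblast UMIs, 6.82% were at least 4 times higher in each library. The 25 markers with the largest log2 ratio (7.67 to 9.51, with 1 CPM added to both sides) held the long noncoding RNA Meg3, at the top, and genes of the matrix, contraction and secretion.

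Collagens other than those of the gate, and their helpers, were among these markers. Col5a2, which nucleates fibrils with collagen I, Col12a1, which decorates them, and Col6a1 and Col6a3, of the microfibrils around cells, were all among the 25. Lox and Loxl1, the oxidases that cross-link collagen and elastin, stood at log2 ratios of 8.95 and 8.20 over other cells. Of the fibrillar collagen genes 7 of 8 with at least 10 UMIs were at least 4 times higher in each library, but 3 of the 7 are the genes that chose the cells. Of the proteoglycans 12 of 12 were. Serpinh1, the collagen chaperone, was found in all 51 cells and was also present elsewhere, at 154 CPM in the other cells.

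Elastic-fibre and matricellular genes followed. Mfap5, a microfibril component, was at a log2 ratio of 8.72, Fbn1, the fibrillin of the same fibres, at 7.81, and Fbln2, a fibulin that bridges them, at 8.31. Postn, which encodes periostin, was found in 48 cells, and Thbs2, a thrombospondin, in 39. Sfrp2, a secreted modulator of Wnt signals, and Fst, which binds activin, were found in 30 and 35 cells. Prrx1, a transcription factor of limb and skin mesenchyme, was found in 47 cells at a log2 ratio of 7.80.

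Not every marker was even across libraries. Ptx3, a soluble pattern-recognition protein, was at 34.2 and 628 CPM in S1 and S2, against 1333 and 963 CPM in S3 and S4. Rarres2, the precursor of the chemoattractant chemerin, was at 864 and 5345 CPM against 4606 and 4145 CPM. In both the 6 cells of S1 stood apart, and for Rarres2 the groups overlapped. The lowest log2 ratio of any of the 25 in any library was 3.45, for Ptx3 in S1.

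Receptors and ligands of the fibroblasts were measured at lower counts. Pdgfrb, the receptor shared by fibroblasts and mural cells, was at 231 and 211 CPM in S1 and S2, against 269 and 99.1 CPM in S3 and S4. Thy1, a surface glycoprotein, was at 410.4 and 417 CPM against 786 and 242 CPM. For both genes the groups overlapped. Among ligands, Igfbp7 and Fstl1 were found in 50 and 51 cells, while 27 of 45 growth factor and ligand genes had fewer than 40 UMIs and were not compared between groups. MHC class II genes, which antigen-presenting fibroblasts would show, stayed below the other cells: Cd74 was at 171 and 182 CPM in the Adar1-null fibroblasts, with 199 and 99.1 CPM in those of controls, against 2719.7 CPM over all other kept cells.

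Secreted inflammatory proteins were prominent among the genes that varied most from cell to cell. After thinning each cell to 4000 UMIs, the 10 genes of at least 200 UMIs with the largest variance over mean were Saa3, Cxcl5, Cxcl2, Acta2, Serpinb2, Lcn2, Fabp4, Ctla2a, Fth1 and Malat1. Saa3 encodes an acute-phase apolipoprotein, Cxcl5 and Cxcl2 neutrophil chemokines, and Lcn2 a siderophore-binding protein. The 3 highest cells held 70.3% of all Saa3 UMIs, 89.1% of Cxcl5, 92.5% of Cxcl2 and 97.8% of Serpinb2. The level of these genes in a library therefore rested on a few cells.

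Sets of cells named by single genes showed how these states overlapped, and no set was tested. Cxcl9 of at least 10 UMIs, a T cell chemokine induced by interferon-gamma, was found in 18 cells, 3 of 6 in S1, 9 of 14 in S2, 5 of 8 in S3 and 1 of 23 in S4. Saa3 of at least 10 UMIs was found in 10 cells, 0 in S1, 2 in S2, 2 in S3 and 6 in S4. Both sets held 3 cells in common, which is 16.7% of the Cxcl9 set, where 19.6% of all fibroblasts were in the Saa3 set, and 30% of the Saa3 set, where 35.3% of all fibroblasts were in the Cxcl9 set. These shares are near those over all fibroblasts. The high-Cxcl9 cells were deeper, with a median of 21055 UMIs, and the part of depth in this set was not tested.

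Of the 18 high-Cxcl9 cells 13 also had at least 10 Acta2 UMIs, which is 72.2% of the Cxcl9 set, against 37.3% of all fibroblasts. The 19 high-Acta2 cells were deep too, with a median of 21346 UMIs, and 2 of the 13 were Rgs5-positive. S4 held 23 of the 51 fibroblasts, but 1 high-Cxcl9 cell and 5 of the 19. The part of depth and library in this overlap was not tested. Pi16 and Clec3b, genes of the fibroblast state found across many tissues, were found in 12 and 15 cells and shared 9 of them (75.0% and 60% of each). Over all fibroblasts 29.4% had Clec3b and 23.5% had Pi16. Cthrc1 of at least 3 UMIs and Lrrc15, both known from matrix-producing tumour fibroblasts, marked 20 and 16 cells and shared 13 (65.0% and 81.3%). Of all fibroblasts 31.4% were in the Lrrc15 set and 39.2% in the Cthrc1 set. No cell had both Clec3b and at least 10 Acta2 UMIs. Across the 51 cells the share of UMIs in the type I interferon list and in the interferon-gamma list had a Spearman rho of 0.83, and it was 0.54 over the 23 cells of S4 alone. Myofibroblast and proteoglycan shares had a rho of -0.62, which was -0.29 over S4 alone and -0.52 over the 45 cells without the Rgs5-positive ones. These correlations are over cells that share libraries, depth and free RNA.

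**Figure D3:**
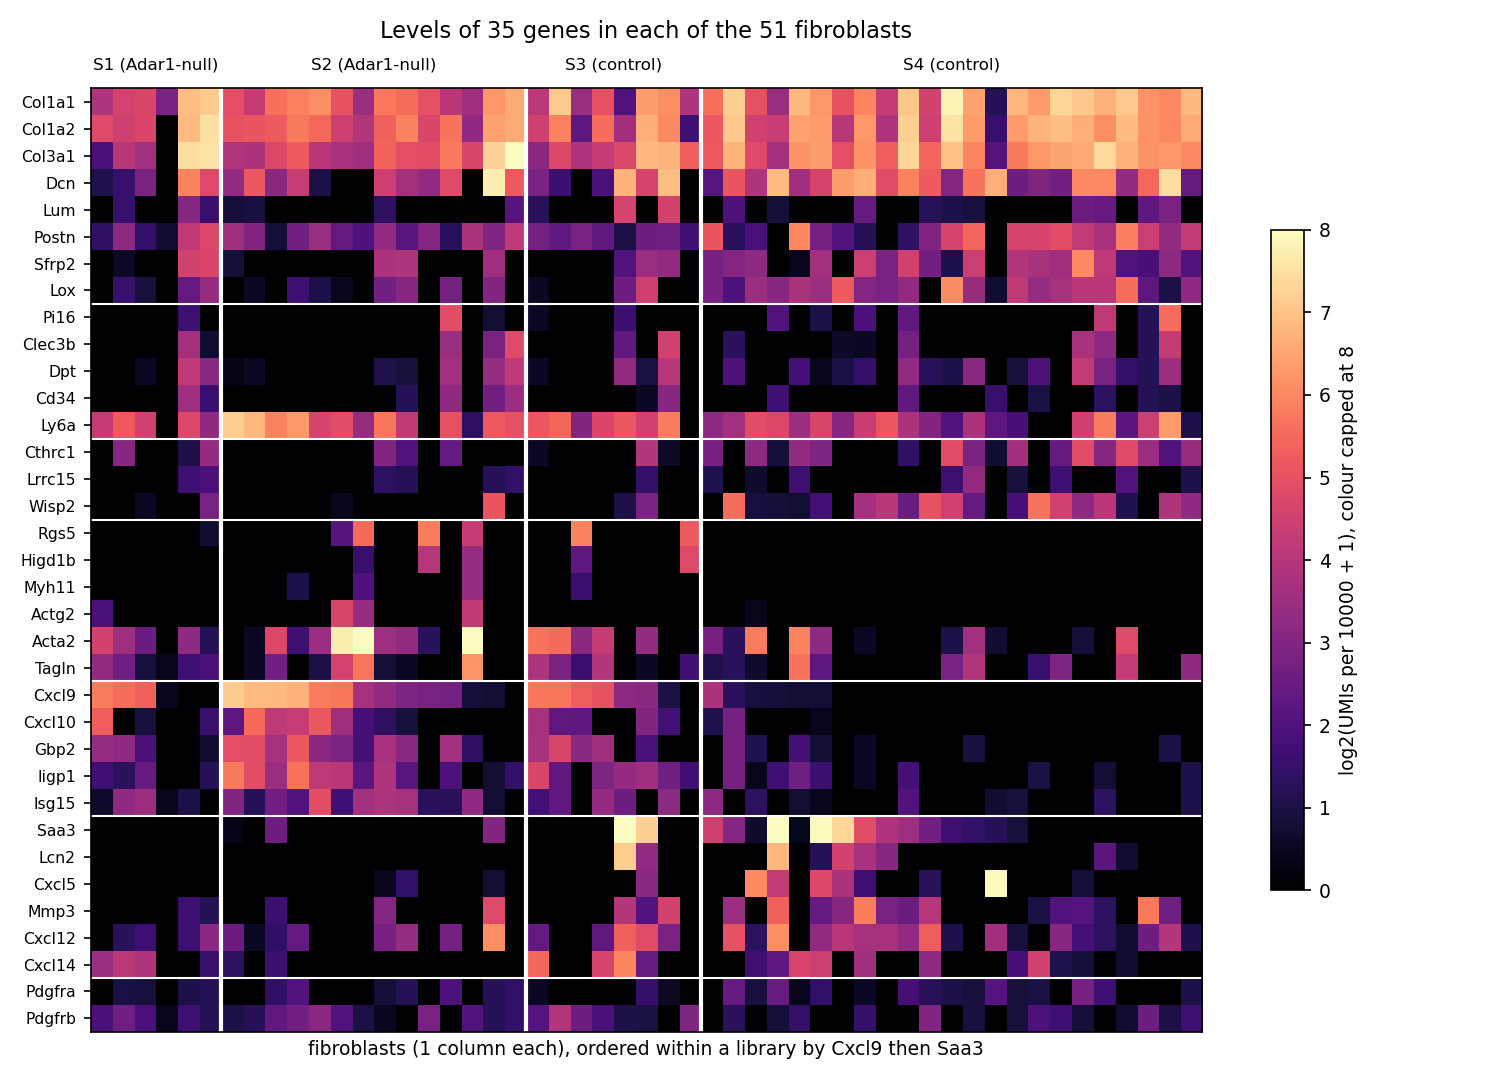
Levels of 35 genes (rows) in each of the 51 fibroblasts (columns), as log2 of UMIs per 10000 plus 1 with the colour capped at 8, grouped by library with Adar1-null libraries left. Cxcl9 of at least 10 UMIs is seen in 12 of the Adar1-null cells and 6 of the control cells, 5 of them in S3.

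The comparison of genotypes asked which fibroblast genes differed between Adar1-null and control tumours, and with 2 libraries a group and 6 to 23 cells a library it is a description without a test. A gene was called higher or lower where its levels did not overlap between the genotypes and the log2 ratio of group means, with 20 CPM added, was at least 1 in size. Of 2872 genes with at least 40 UMIs, 53 were higher (1.85%) and 109 lower (3.8%) in Adar1-null fibroblasts. Without the 2-fold limit 538 genes lay higher without overlap (18.7%) and 406 lower (14.1%). The median log2 ratio over all 2872 genes was 0.05, and 1565 of them had a positive ratio. In such sums more cells of a state and more RNA per cell cannot be told apart.

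Genes known to be induced by interferon-gamma leaned higher in Adar1-null fibroblasts, with S2 high and S4 low. All 18 compared members of that list had a positive log2 ratio, with a median of 1.11, and 4 met the call, or 5 without the Rgs5-positive cells. Cxcl9 was at 2479 and 5807 CPM in the Adar1-null libraries, against 2248 and 62.0 CPM in the control libraries (log2 ratio 1.82). S1 and S3 lay close together, S2 was highest and S4 stood far below the others. Without S4 the ratio was 0.88 and without S3 it was 5.67. The macrophages of the same libraries had 744 and 885 CPM of Cxcl9, against 629.6 and 159 CPM, so that S4 was lowest there too.

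Cxcl10, a ligand of the same chemokine receptor, was at 624 and 993 CPM in the Adar1-null libraries, against 517 and 18.6 CPM in the control libraries (log2 ratio 1.52). Again S3 lay nearer to the Adar1-null libraries than to S4. Gbp2, a guanylate-binding GTPase of cell defence, was at 359 and 1345 CPM, against 607 and 62.0 CPM (log2 ratio 1.30), and its groups overlapped. The promoters of Cxcl10 and Gbp2, 2 genes with matches to response elements, are shown with the matches in capitals. They are from RefSeq on GRCm38.p6, 250 bases before to 50 after the start of the gene. GAAA and GAAA with 2 bases between, a form of the interferon-stimulated response element, and GGG and TTCC with 3 bases between, a form of the NF-kB site, were searched on both strands and occur in 3.44% and 5.56% of 32851 promoters. In Cxcl10 (chr5:92348840-92349139, minus strand) they begin at -213, -159 and -104, and in Gbp2 (chr3:142620413-142620712, plus strand) at -59 and 8. The promoter of Cxcl9 was searched too and held neither of these forms. TTC and GAA with 3 bases between, a form of the interferon-gamma activated site, occurs in 8.3% of promoters. It had no match in any promoter searched here. A match is a description of the sequence only.
Cxcl10: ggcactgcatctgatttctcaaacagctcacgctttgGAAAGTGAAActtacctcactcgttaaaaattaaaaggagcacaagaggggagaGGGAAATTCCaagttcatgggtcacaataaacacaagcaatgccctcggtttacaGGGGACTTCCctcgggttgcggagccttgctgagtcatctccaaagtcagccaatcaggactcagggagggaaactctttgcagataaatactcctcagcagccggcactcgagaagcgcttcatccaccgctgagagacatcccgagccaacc
Gbp2: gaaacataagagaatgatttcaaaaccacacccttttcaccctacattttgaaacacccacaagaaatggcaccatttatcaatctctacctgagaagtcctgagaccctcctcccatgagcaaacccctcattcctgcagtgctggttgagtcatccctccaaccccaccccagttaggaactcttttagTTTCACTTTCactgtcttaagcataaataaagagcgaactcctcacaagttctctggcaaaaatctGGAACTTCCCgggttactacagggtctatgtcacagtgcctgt

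Type I interferon-stimulated genes were less uniform. Of 27 compared members 22 had a positive ratio, with a median of 0.56, and 3 were called higher and 1 lower. Without the Rgs5-positive cells 1 was called higher and 1 lower, with a median of 0.55. Ifit1, a binder of viral RNA, was at 34.2 and 223 CPM in the Adar1-null libraries, against 29.8 and 12.4 CPM in the control libraries (log2 ratio 1.85). Isg15, a small protein conjugated to others like ubiquitin, stood at 385 and 738 CPM, against 358 and 74.4 CPM (log2 ratio 1.30). Without the Rgs5-positive cells its libraries overlapped, at 385 and 779.9 CPM against 419 and 74.4 CPM. In both genes S2 was high, while S1 and S3 were close. Zbp1, also called higher, was at 179.5 and 632 CPM against 179.1 and 96.0 CPM, with 21 UMIs in S1 and 18 in S3. For Ifit1 and Zbp1 the gap between S1 and S3 was under the worth of 1 UMI, and their calls rested on it. Ifi27 lay the other way, at 171 and 231 CPM against 448 and 428 CPM (log2 ratio -1.05), without overlap.

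Of 13 compared genes of MHC class I presentation, all had a positive ratio, with a median of 0.72, and 2 were called higher. Without the Rgs5-positive cells the median was 0.79 and 0 were called in either direction. B2m, the light chain of class I molecules, was at 5369 and 11448 CPM in the Adar1-null libraries, against 5710.4 and 2658 CPM in the control libraries, and the groups overlapped. Leaving out S2 gave medians of 0.59 for the interferon-gamma list, -0.16 for the MHC class I list and -0.20 for the type I list, over the 11, 11 and 13 members that then kept enough UMIs. Leaving out S4 gave 0.42, 0.13 and 0.07. The positive medians therefore rested in large part on those libraries. In all other kept cells too, S2 was highest and S4 lowest for both the type I and the MHC class I list. There the type I list made up 0.488% and 0.759% of UMIs in S1 and S2, against 0.622% and 0.447% in S3 and S4. The MHC class I list made up 0.714% and 0.925%, against 0.891% and 0.696%.

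Ccl5, a chemokine known mainly from T cells, had the largest positive ratio without overlap. It was at 1342 and 381 CPM in the Adar1-null libraries, against 59.7 and 12.4 CPM in the control libraries (log2 ratio 3.98). All T cells together had 4035 CPM of Ccl5. A single cell held 96 of the 157 UMIs in S1 and another 76 of the 94 in S2, and the part of T cell RNA in these cells was not tested.

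Inflammatory fibroblast genes were mixed, with the largest ratios negative. Of 22 compared members 8 were called lower in Adar1-null fibroblasts and 0 higher, 7 had a positive ratio, and the median was -1.02. Without the Rgs5-positive cells 6 were called lower, with a median of -0.88. Saa3 was at 0 and 93.2 CPM in the Adar1-null libraries, against 6397 and 5979 CPM in the control libraries (log2 ratio -6.54). The groups were far apart, but few cells set the control levels. All 643 UMIs of S3 came from 2 cells, and in S4 the 3 highest cells held 93.7% of 1930 UMIs. A Saa3 UMI was also found in 37.8% of macrophages and 7.08% of T cells, so that a cell with a few UMIs is not read as expressing it. Macrophages of the same libraries had 46.1 and 18.5 CPM of Saa3, against 113 and 2562 CPM. Lcn2 had no UMI in either Adar1-null library, against 1592 and 719 CPM in the control libraries. With each group's libraries pooled it was at least 112-fold lower, with 3 UMIs over the group as the floor. The 3 highest cells held 84.2% of all Lcn2 UMIs.

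Neutrophil chemokines lay low with these genes, mostly through S4. Cxcl5 was at 0 and 24.3 CPM in the Adar1-null libraries, against 169 and 2203 CPM in the control libraries (log2 ratio -5.23, and -2.56 without S4). Cxcl2 was at 76.9 and 20.3 CPM, against 79.6 and 2048 CPM (log2 ratio -3.98, and -0.54 without S4). For both, S3 lay nearer to the Adar1-null libraries than to S4. Cxcl12, the chemokine that holds lymphocytes and progenitors near stroma, was at 188 and 685 CPM, against 1244 and 926 CPM (log2 ratio -1.28). This call was lost without the Rgs5-positive cells, since the libraries overlapped at 188 and 935 CPM against 1455 and 926 CPM. Without S4 the median of the whole list was -0.17. In all other kept cells this list made up 0.419% and 0.487% of UMIs in the Adar1-null libraries. It made up 0.617% and 0.876% in those of the control libraries, so it lay lower with Adar1-null tumours there too.
The promoter of Saa3 (chr7:46715627-46715926, minus strand, RefSeq, GRCm38.p6) is shown as that of the gene with the largest negative ratio. In capitals are a match to the interferon-stimulated element at -125 and one to TTGC and AA with 3 bases between, a form of the C/EBP site found in 9.56% of the promoters on either strand, at 36.
Saa3: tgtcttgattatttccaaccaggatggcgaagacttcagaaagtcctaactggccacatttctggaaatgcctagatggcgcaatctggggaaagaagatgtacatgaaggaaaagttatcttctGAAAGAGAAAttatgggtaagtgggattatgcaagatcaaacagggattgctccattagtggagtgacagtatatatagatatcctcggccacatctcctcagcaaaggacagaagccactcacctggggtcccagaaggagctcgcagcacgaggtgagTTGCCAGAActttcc

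**Figure D4:**
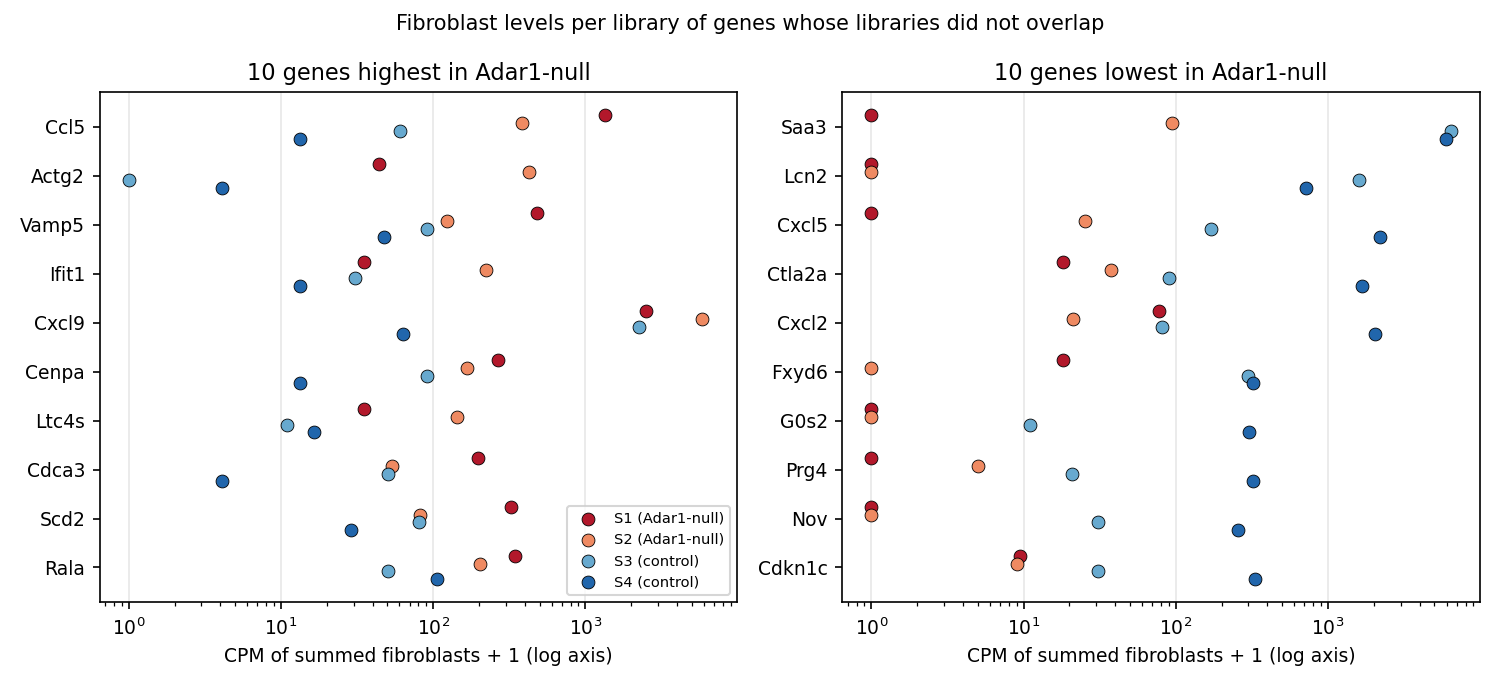
CPM of the summed fibroblasts plus 1 (log axis) in each library for genes whose libraries did not overlap between Adar1-null and control tumours. Each point is 1 library, and for several higher genes, Cxcl9 among them (2479 and 5807 against 2248 and 62.0 CPM), S3 lies close to S1.

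Proteoglycan and matrix glycoprotein genes leaned lower in Adar1-null fibroblasts, while collagen processing genes did not. All 10 compared proteoglycans and all 20 compared matrix glycoproteins had a negative ratio, with medians of -0.82 and -0.73, and 2 of each were called lower, or 2 and 3 without the Rgs5-positive cells. Dcn was at 1009 and 2391 CPM in the Adar1-null libraries, against 4139 and 4442 CPM in the control libraries (log2 ratio -1.33, and -1.12 without the Rgs5-positive cells). Prelp, another leucine-rich proteoglycan, was at 25.6 and 20.3 CPM, against 159 and 201 CPM (log2 ratio -2.22). Neither gene overlapped. Leaving out any 1 library left both medians between -0.83 and -0.49. Taken as means of CPM over cells, they were -0.48 and -0.43. At a collagen floor of 20 UMIs, which drops the seventh doubtful cell and the lowest cell of S4, they were -0.66 and -0.51. Of 25 compared collagen processing enzymes and chaperones, 13 had a positive ratio. Their median was 0.007, with 1 called higher and 1 lower.

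Mfap2, a microfibril protein, averaged 149.9 ± 5.66 CPM in the Adar1-null libraries and 509 ± 2.68 CPM in the control libraries (SD, n = 2 each), at 154 and 146 against 507 and 511 CPM. As 1 UMI was worth 8.55 CPM in S1 and 9.95 CPM in S3, more than these SDs, their smallness is not read as precision. Fn1, which encodes fibronectin, was at 864 and 835 CPM, against 1522 and 1472 CPM (log2 ratio -0.80), without overlap but under the 2-fold limit. Lox was at 214 and 203 CPM, against 517 and 1441 CPM (log2 ratio -2.13). In all these the libraries of a group lay on one side. The collagens that chose the cells are given as a description only and add nothing to the matrix result, with Col1a1 at 4095 and 3878 against 4596 and 8101 CPM (log2 ratio -0.67) and Col3a1 at 4386 and 3716 against 5591 and 6939 CPM (log2 ratio -0.63). Basement membrane collagens had a median of -0.06, with 0 of 11 called in either direction, or 1 of 10 lower without the Rgs5-positive cells.
The promoter of Col1a2, a gene of the gate (chr6:4505368-4505667, plus strand, RefSeq, GRCm38.p6), holds CCAAT boxes, in capitals, at -109 and, on the other strand, at 1. CCAAT occurs on either strand in 37.4% of the promoters.
Col1a2: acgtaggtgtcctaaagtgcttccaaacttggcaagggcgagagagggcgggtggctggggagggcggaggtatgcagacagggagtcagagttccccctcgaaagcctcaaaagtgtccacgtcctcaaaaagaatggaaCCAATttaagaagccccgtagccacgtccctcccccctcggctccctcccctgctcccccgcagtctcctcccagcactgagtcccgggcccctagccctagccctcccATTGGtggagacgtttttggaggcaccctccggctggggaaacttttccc

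Among matrix-degrading genes, 5 of 19 compared proteases and inhibitors were called lower and 0 higher. Mmp3, the stromelysin, was at 34.2 and 255 CPM in the Adar1-null libraries, against 686 and 895 CPM in the control libraries (log2 ratio -2.30). Ligands went both ways, with 2 of 18 called higher and 4 lower, or 1 and 3 without the Rgs5-positive cells. Pdgfa, a ligand of Pdgfra, was at 197 and 142 CPM, against 79.6 and 24.8 CPM (log2 ratio 1.39), and Igf1, the insulin-like growth factor, was at 51.3 and 36.5 CPM, against 149 and 350.1 CPM (log2 ratio -2.08).

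Contractile genes depended on the Rgs5-positive cells. With all cells, 12 of 12 compared members had a positive ratio, with a median of 1.05 and 3 called higher. Without the 6 Rgs5-positive cells the median was -0.01, with 1 of 9 called higher and 2 lower. Acta2 was at 718 and 6593 CPM in the Adar1-null libraries, against 1701 and 1382 CPM in the control libraries, and the groups overlapped. Without the Rgs5-positive cells it was at 718 and 680.3 CPM, against 1897 and 1382 CPM, lower without overlap (log2 ratio -1.21). Actg2, among the 10 genes with the largest positive ratio, had 105 of its 111 UMIs in 3 of the Rgs5-positive cells. Cnn3, a calponin, had a log2 ratio of 1.06 either way.

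Immediate-early genes, which cell dissociation is known to induce, had a median of -0.67, with 4 of 24 called lower and 0 higher, or 5 of 23 lower without the Rgs5-positive cells. Jun, a subunit of the transcription factor AP-1, was at 359 and 750 CPM in the Adar1-null libraries, against 786 and 1521 CPM in the control libraries (log2 ratio -1.03). Their part in the other differences was not tested. Mesenchymal transcription factors, receptors and stromal complement genes had medians of -0.19, -0.32 and -0.09, with 1 of 14, 4 of 28 and 1 of 6 called lower and none higher. Over all genes compared, 3.8% were called lower and 1.85% higher, and a single call in a short list is not read further. Of the receptors 2 were called lower without the Rgs5-positive cells.

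**Figure D5:**
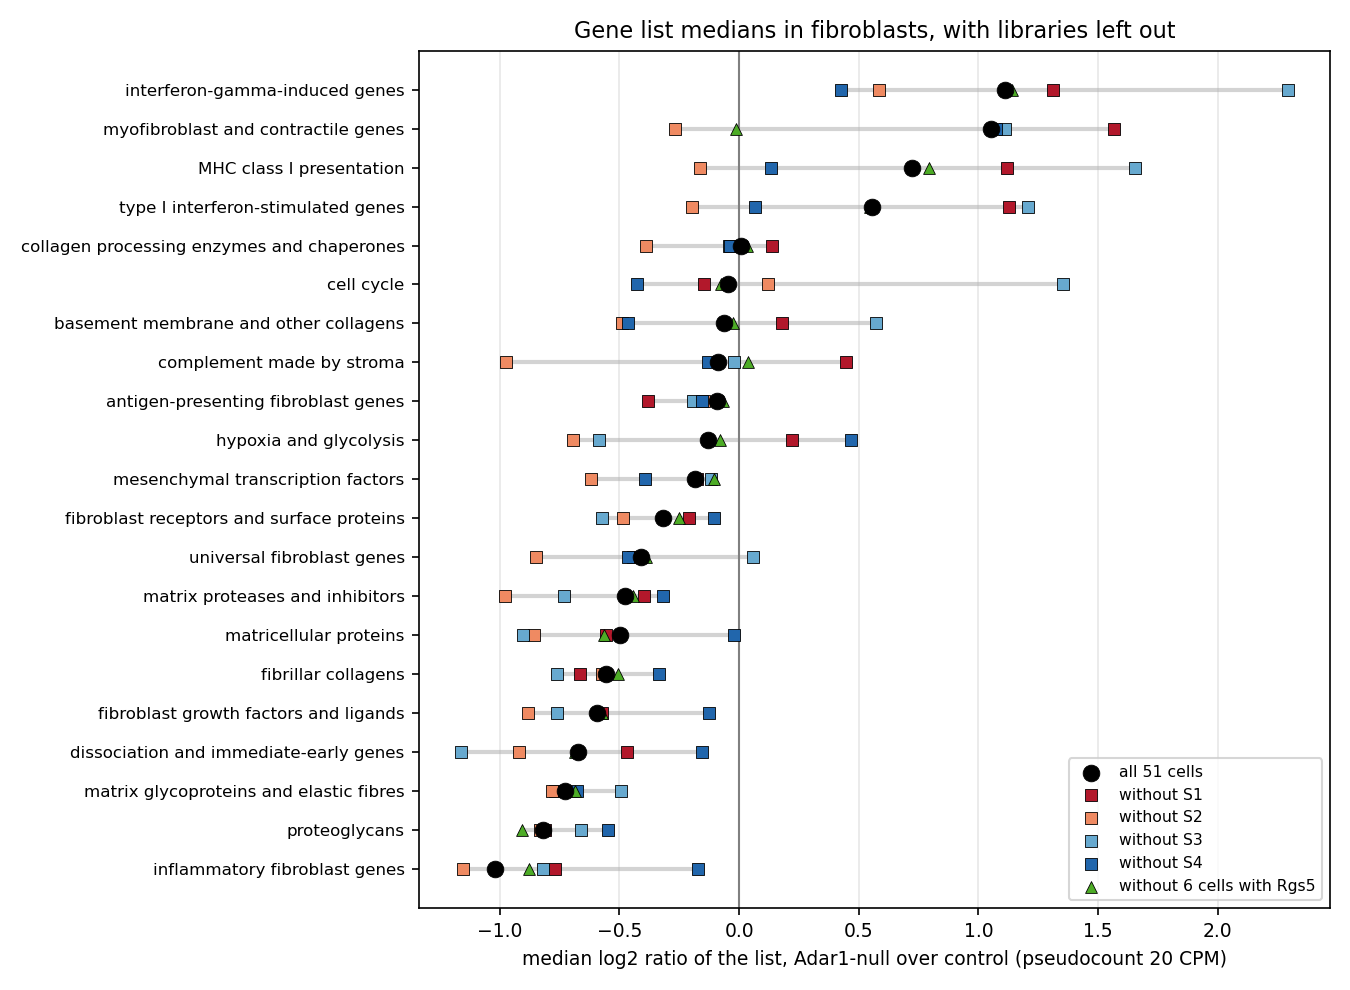
Median log2 ratio of each gene list in the fibroblasts, Adar1-null over control with 20 CPM added, for all libraries and with libraries or the Rgs5-positive cells left out. The interferon-gamma list stood at 1.11 and the inflammatory list at -1.02 with all libraries, and the contractile list at 1.05 with and -0.01 without the Rgs5-positive cells.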

How the data were processed

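UMI counts per gene and cell barcode were used as the authors deposited them, in 1 matrix whose barcode names carry the libraries S1 to S4. Cell Ranger, Seurat 2.2.0 and build mm10 are named per the submitters' processing notes, and no other upstream setting is stated by those notes or the labels. No column of another sample was used. The members and gene lists were chosen with earlier results of these data known.

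Barcodes under 500 genes or over 10% mitochondrial UMIs were dropped, and the gate was applied to raw UMIs. Counts were summed over the fibroblasts of each library and divided by their total (CPM). Library totals were 24329665, 23850251, 25992944 and 33636018 UMIs in S1 to S4. Log2 ratios between genotypes had 20 CPM added and those against other cells 1 CPM. Genes named were the 25 top markers, the highest members of the lists, the 10 largest ratios in each direction without overlap, the interferon extremes and the 10 most variable genes. Other list members that met the call or were set beside them were chosen after their values were seen. Intervals (95%) and the floor of 3 UMIs cover counting error only. Scrublet, in scanpy 1.11.5, was run per library at an expected rate of 0.02. Python 3.11.15, numpy 2.4.6, scipy 1.17.1, pandas 2.3.3 and matplotlib 3.10.9 were used. Alternatives to the gate, scaling, pseudocount and count minimum were tried.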

Additional observations from a re-analysis of the deposited data

How the results depend on the processing

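The count of genes higher in Adar1-null fibroblasts (53) was 81 without cells holding any Csf1r, Cd3, Pecam1 or Cdh5 UMI, 96 and 22 with 5 and 50 CPM added, 93, 22 and 146 at minima of 20, 100 and 1 UMIs, 248 at a log2 limit of 0.58, and 62 to 176 with 1 library left out. The count of genes lower (109) was 59 and 185 at minima of 100 and 1 UMIs, 212 at a log2 limit of 0.58, and 73 to 190 with 1 library left out. The marker count (163) was 84 without cells holding any of those lineage UMIs, 251 against melanoma cells, and 115 to 164 with 1 library left out. The difference in share ran between -0.316 and 0.102 percentage points with 1 library left out, and was 0.0987 without S1 and 0.102 without S4. The log2 ratio of Cenpa between genotypes was -0.49 without cells holding a lineage UMI, against 1.28 without the Rgs5-positive cells. The cause was not tested. With median-of-ratios scaling 38 genes were higher and 119 lower. Leaving out the Rgs5-positive cells, an alternative chosen after seeing the data, gave 54 higher, 108 lower and 153 markers. Of these, 33, 95 and 150 were among the genes reported, so a similar count did not mean the same genes. A collagen floor of 20 UMIs gave 44 higher genes, 26 of them among the 53. Means of CPM over cells gave 58, with 35 of them among the 53. Of the 81 higher genes without cells holding a lineage UMI, 14 were among the 53. No paired analysis was possible because the barcode names carry no replicate number that is shared between groups. Precision was limited by 6 to 23 fibroblasts a library.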

Other observations

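The lineage limits removed 11 kept cells with at least 10 collagen UMIs. In S1 they were 3 cells with 195, 249 and 326 collagen UMIs and 17, 7 and 10 Cd3 UMIs, the last with 226 Ccl5 UMIs. A cell of S3 had 435 collagen UMIs beside 210 UMIs of Mlana and Dct, and another had 29 collagen UMIs beside 33 of Pecam1 and Cdh5 and 89 of Rgs5.

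Besides Lcn2, other genes had no UMI in the Adar1-null fibroblasts. With 3 UMIs over the group as the floor, Cxcl13, a B cell chemokine, was at least 43.2-fold lower, G0s2, an inhibitor of lipolysis, at least 28.1-fold, and Nov, a matricellular protein, at least 24.6-fold. These bounds pool the libraries of each group and do not hold for each control library. Without the Rgs5-positive cells Nov was at 34.9 CPM in S3 and 257 CPM in S4. How many cells held the UMIs of these genes is not given here. These genes were chosen after their values were seen.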
